A study of Homo sapiens with 6 samples.

Results

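The genes described here are the transcription factors of the NF-kB family and the proteins that hold them in check, followed in BaF3-T315I cells with and without I13. They are the 10 genes Nfkb1, Nfkb2, Rel, Rela, Relb, Nfkbia, Nfkbib, Nfkbie, Tnfaip3 and Ikbkg, picked by gene name from the 22413 genes of the deposited expression table, and all 10 were found there. BaF3 is a murine cell line of the pro-B lineage that depends on interleukin 3, and BaF3-T315I is its derivative stably transfected with BCR-ABL carrying the T315I mutation. All 6 samples carry that transgene. The 3 control samples were compared with 3 samples exposed to 1.1 µM of I13, a histone deacetylase (HDAC) inhibitor derived from indole-3-butyric acid. The I13 exposure lasted 48 h, while the vehicle and the time of the controls are not given in the sources used here. Nothing in the labels says that the replicates of a group were separate cultures, so the p-values measure only the spread between these samples. The labels name the organism as human, whereas every one of the 10 genes carries a mouse Ensembl identifier, and the values were read as mouse genes.

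NF-kB proteins are dimers of Rel family subunits that sit in the cytoplasm bound to inhibitors of the IkB family until a signal releases them. In the canonical route the IkB kinase complex, which contains Ikkα, Ikkβ and the scaffold NEMO, marks IkB proteins for destruction, and dimers of RelA or c-Rel with p50 enter the nucleus. In the non-canonical route the precursor encoded by Nfkb2 is processed to p52, which pairs with RelB. Several of the genes that NF-kB turns on encode its own brakes, among them Nfkbia and Tnfaip3, so their mRNA is widely used as a readout of the pathway in lymphoid and myeloid cells. mRNA levels say nothing about the location, the processing or the acetylation of these proteins, which were not measured.

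Expression was given as FPKM, a fragment count scaled by gene length and by how many fragments mapped, which allows levels to be compared between genes. Library totals recovered from the FPKM values ran from 16762119 to 17722950 fragments, and the 10 genes rested on 63 to 10300 fragments per sample. A gene was called changed at a Benjamini-Hochberg adjusted p below 0.05 over the 12163 genes that averaged 0.5 FPKM or more, if its log2 fold change was also 0.58 or larger in either direction, in limma on log2(FPKM + 0.1). For weakly expressed genes a fold change on this scale comes out too small. Replicate numbers shared between the groups were taken to pair the samples, although the labels do not say what a number stands for. Values from limma with these numbers as a block are given where they change a result. Among markers of the line, the interleukin 3 receptor chain Il3ra ranged from 9.07 to 18.2 FPKM and the B lineage gene Cd79a from 14.1 to 27.5, whereas the early B cell genes Ebf1, Pax5, Igll1 and Vpreb1 were at or near 0. The 10 markers of the line and of blood cells in the table summed to 481 to 937 FPKM in the controls and 965 to 1713 FPKM with I13, most of it from the receptor chains Csf2rb and Csf2rb2. Csf2rb2 ran from 196 to 409 FPKM in the controls and from 449 to 795 FPKM with I13, and Ptprc (CD45) from 10.2 to 10.9 and from 13.5 to 15 FPKM. Other markers of this list overlapped between the groups. Csf2rb had 238.7 to 462.9 FPKM in the controls and 448 to 838.5 FPKM with I13, and Spi1 12.5 to 17.4 and 16.4 to 20.7 FPKM. Il3ra had 9.07 to 13.6 and 12.2 to 18.2 FPKM, and Cd79a 14.1 to 25.9 and 23.3 to 27.5 FPKM. Markers of T cells summed to at most 0.394 FPKM and those of fibroblasts, of which 1 of 4 was in the table, to at most 0.13. The 5 macrophage markers summed to between 22.9 and 46.4 FPKM in the controls and between 53.1 and 87.2 with I13. Adgre1 (F4/80) was the largest part of that sum in every sample, at 18.1 to 40.1 FPKM in the controls and 44.1 to 76.7 FPKM with I13. Cd68 had 3.02 to 4.83 and 4.33 to 8.36 FPKM, and Lyz2 1.42 to 1.77 and 2.04 to 4.08 FPKM, while Csf1r and Mrc1 stayed at or below 0.0702 FPKM.

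None of the 10 NF-kB genes was called changed after I13, against 0.0411% of all genes tested (5 genes). All 10 had passed the filter on low values. At an unadjusted p below 0.05 there were 0 of the 10, against 18.6% of all genes, and the lowest unadjusted p in limma was 0.121, for Rela. In 0 of the 10 did the control and I13 samples fall into ranges that do not overlap, which was so for 25.2% of all genes. The median log2 fold change of the 10 genes was 0.012 and their median absolute log2 fold change was 0.11, against -0.005 and 0.19 over all genes tested. With the replicate block, 0 of the 10 were called, against 1.89% of all genes, and Nfkb2 and Rela had an unadjusted p below 0.05, which makes 2 of 10 against 28% of all genes. In the pairs of same-numbered samples Rel was higher with I13 in all 3, Nfkb2 and Rela were lower in all 3, and the other 7 genes were mixed. A constant direction was seen in 51.5% of all genes. In bulk RNA, a change in the share of cells that express a gene and a change of its mRNA per cell cannot be told apart. The plot of FPKM by sample shows these values gene by gene.

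**Figure D1:**
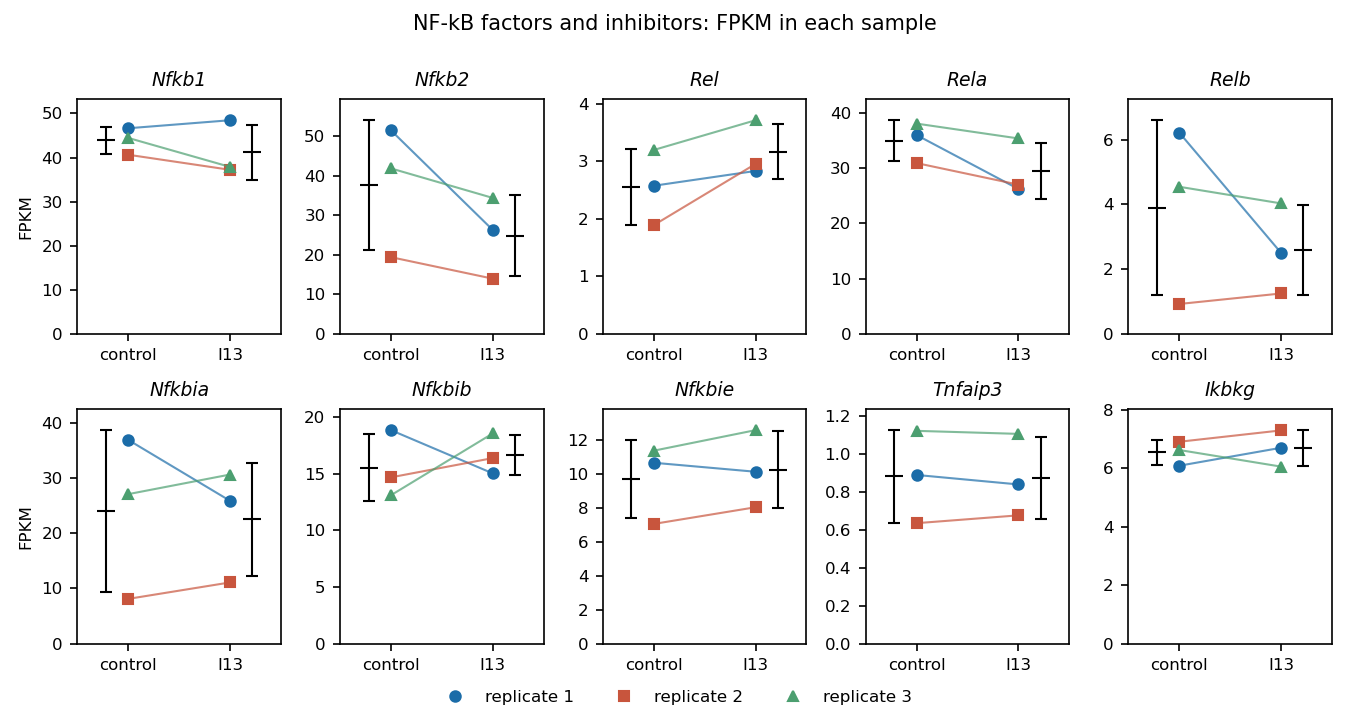
FPKM (linear axis from 0) of the 10 NF-kB genes in the 3 control and the 3 I13 samples. Points are single samples, lines join samples with the same replicate number, and the black bars beside them are the group mean with its SD. In Nfkb2, Relb and Nfkbia replicate 2 lies far below replicates 1 and 3 in the controls and below them with I13.

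Rela encodes p65, the subunit that carries the main transactivation domain of canonical NF-kB. Its FPKM was 36.0, 30.9 and 38.1 in control replicates 1, 2 and 3, and 26.3, 27.0 and 35.4 in I13 replicates 1, 2 and 3. All 3 I13 samples were lower than the control of the same number, yet the highest I13 sample exceeded the lowest control, so the groups overlap. The mean was 35.0 ± 3.69 (SD, n = 3) in the controls and 29.6 ± 5.08 (SD, n = 3) with I13, a log2 fold change of -0.25 (SE 0.14, 95% confidence interval -0.59 to 0.085, limma adjusted p = 0.383). With the block the log2 fold change had an SE of 0.091 and an adjusted p of 0.148 in limma.

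Nfkb1 encodes the p105 precursor of p50, which pairs with RelA and c-Rel. Its FPKM was 46.6, 40.6 and 44.5 in the controls and 48.5, 37.2 and 37.9 with I13. By group mean it was the most abundant of the 10 mRNAs in both groups, although Nfkb2 exceeded it in control replicate 1, and replicate 1 was its highest sample in each group. The log2 fold change was -0.10 (SE 0.13, limma adjusted p = 0.703), and its 95% confidence interval of -0.40 to 0.19 lay inside the fold change threshold on both sides.

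Rel encodes c-Rel, a subunit typical of lymphoid cells. Its FPKM was 2.58, 1.89 and 3.20 in the controls and 2.83, 2.96 and 3.72 with I13, higher with I13 in all 3 pairs. The differences within pairs were 0.13, 0.62 and 0.21 on the log2 scale, so the size of the change rested mostly on replicate 2. The mean moved from 2.56 ± 0.654 (SD, n = 3) in the controls to 3.17 ± 0.479 FPKM (SD, n = 3) with I13, which is a log2 fold change of 0.32 (SE 0.21, 95% confidence interval -0.18 to 0.82, limma adjusted p = 0.455). At these levels c-Rel mRNA was a minor part of the family in both groups.

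Nfkb2, the gene of the p100 precursor of the non-canonical subunit p52, had the largest difference of the 10. Its FPKM was 51.5, 19.4 and 41.9 in the controls and 26.3, 13.9 and 34.4 with I13. Every I13 sample was below the control of the same number, while the control of replicate 2 was below the I13 samples of replicates 1 and 3. The means were 37.6 ± 16.5 and 24.9 ± 10.3 FPKM (SD, n = 3 each), and the log2 fold change was -0.57 (SE 0.44, 95% confidence interval -1.60 to 0.45, limma adjusted p = 0.509). With the replicate block the SE fell to 0.14, the 95% confidence interval became -0.92 to -0.23, and the limma adjusted p was 0.0794. Nfkb2 was called lower only by voom on the recovered fragments with the block, at a log2 fold change of -0.58 and an adjusted p of 0.0212, a fit that called 4.14% of all genes. The differences within pairs were -0.97, -0.47 and -0.28, the largest in replicate 1.

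Relb, whose product pairs with p52, varied more among the controls than between the groups. Its FPKM was 6.22, 0.92 and 4.54 in the controls and 2.50, 1.24 and 4.03 with I13. The highest control stood 6.76-fold above the lowest, and the highest I13 sample 3.24-fold above the lowest. Counting error was small beside this, since the 63 fragments of control replicate 2 gave an exact Poisson 95% interval of 0.707 to 1.18 FPKM and the 428 fragments of control replicate 1 an interval of 5.64 to 6.83 FPKM. These intervals cover counting error only. The log2 fold change was -0.35 (SE 0.71, limma adjusted p = 0.822), with a 95% confidence interval of -2.02 to 1.32 that spans large changes in both directions. Relb was lower with I13 in pairs 1 and 3 and higher in pair 2.

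Nfkbia encodes IkBα, the inhibitor that NF-kB itself induces to end a response. Its FPKM was 36.9, 8.10 and 27.1 in the controls and 25.9, 11.1 and 30.6 with I13. Control replicate 2 and I13 replicate 2 were the lowest of their groups, and the other 4 samples lay between 25.9 and 36.9. The means were 24 ± 14.6 FPKM in the controls and 22.5 ± 10.2 FPKM with I13 (SD, n = 3 each), so the mean FPKM was lower with I13. The log2 fold change, which compares means of log2 values, had the opposite sign at 0.038 (SE 0.60, 95% confidence interval -1.38 to 1.45, limma adjusted p = 0.982). With the block the interval narrowed to -0.42 to 0.50. The sign of this small value depends on the processing and on single samples.

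Nfkbib encodes IkBβ, which binds the same dimers and is less inducible. Its FPKM was 18.9, 14.7 and 13.1 in the controls and 15, 16.4 and 18.6 with I13, so that the sample order within the controls was the reverse of that with I13. Of the 10 genes it had the smallest share of its spread between replicate numbers. The log2 fold change was 0.11 (SE 0.15, 95% confidence interval -0.25 to 0.47, limma adjusted p = 0.733).

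Nfkbie encodes IkBε, a further inducible inhibitor that holds mainly RelA and c-Rel. Its FPKM was 10.7, 7.05 and 11.4 in the controls and 10.1, 8.03 and 12.6 with I13. The order of the samples, replicate 3 above 1 above 2, was the same in both groups. The log2 fold change was 0.086 (SE 0.23, 95% confidence interval -0.45 to 0.62, limma adjusted p = 0.866), and with the block the interval was -0.14 to 0.31.

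Tnfaip3 encodes A20, a ubiquitin editing enzyme that shuts signalling to the IkB kinase and is itself an NF-kB target. Its FPKM was 0.89, 0.636 and 1.12 in the controls and 0.84, 0.677 and 1.11 with I13, from 81 to 143 fragments per sample. By group mean it was the least abundant of the 10 mRNAs in both groups. The means were 0.883 ± 0.244 and 0.875 ± 0.217 FPKM (SD, n = 3 each), which is a log2 fold change of -0.0050 (SE 0.31, 95% confidence interval -0.72 to 0.71, limma adjusted p = 0.995). Differences within pairs were small beside the spread of either group.

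Ikbkg encodes NEMO, the regulatory subunit without which the canonical kinase complex does not respond. Its FPKM was 6.09, 6.92 and 6.63 in the controls and 6.71, 7.31 and 6.06 with I13, the narrowest relative range of the 10 genes in both groups. The log2 fold change was 0.029 (SE 0.11, 95% confidence interval -0.23 to 0.29, limma adjusted p = 0.912). For 3 of the 10 genes, Nfkb1, Nfkbib and Ikbkg, the 95% confidence interval lay wholly within a log2 fold change of 0.58 in either direction. With the block this held for 6, adding Rela, Nfkbia and Nfkbie. The other genes could have changed by more than that threshold without being seen in these samples.

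**Figure D2:**
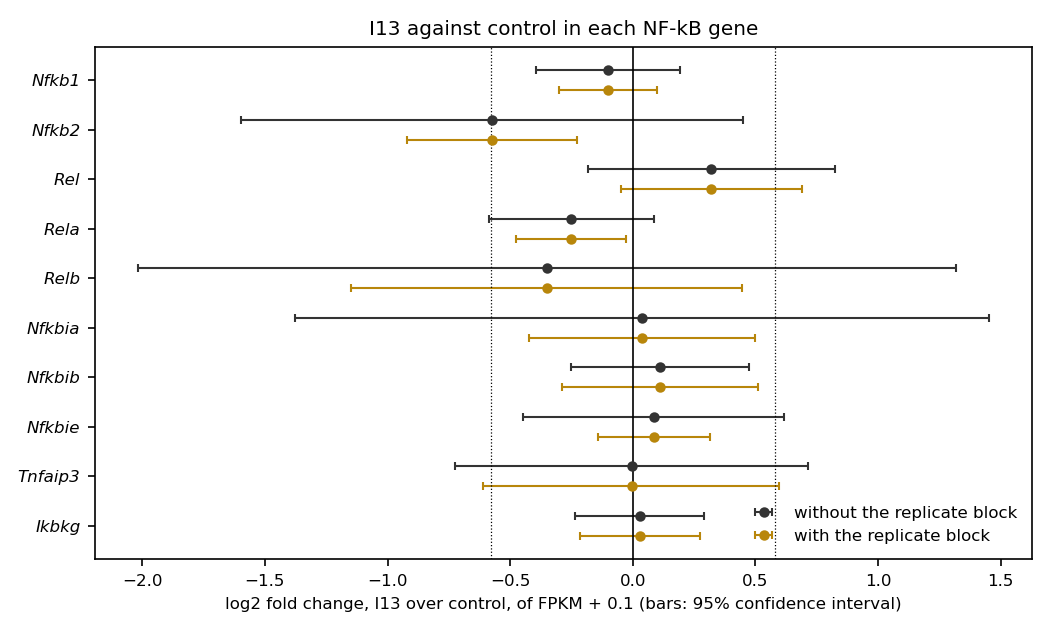
Log2 fold change of FPKM + 0.1, I13 over control, of each of the 10 NF-kB genes (x axis) with its 95% confidence interval from limma, without (dark) and with (gold) the replicate block, 3 samples per group. The dotted lines mark 0.58 in either direction. Nfkb2 and Rela are the genes whose interval with the block lies below 0, from -0.92 to -0.23 and from -0.48 to -0.026.

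Ordered by mean FPKM, the controls ran from Nfkb1 through Nfkb2, Rela, Nfkbia, Nfkbib, Nfkbie, Ikbkg, Relb and Rel to Tnfaip3. Neighbours in that order had overlapping ranges except at Nfkbib over Nfkbie, Nfkbie over Ikbkg and Rel over Tnfaip3. With I13, Nfkb1 stood clear of all others, Rela stood above Nfkb2 and Rel above Relb, but both of these pairs overlapped in both groups, so the change of order was not larger than the spread. Of the summed FPKM of the 5 factors, Nfkb1 made 36.5 ± 5.91% in the controls and 41.2 ± 7.25% with I13, and Nfkb2 made 29.5 ± 7.91% and 23.8 ± 6.48% (SD, n = 3 each). Rela held 29.0 ± 3.9% and 29.4 ± 4.21%. The share of Rel was 1.80, 2.02 and 2.42% in the controls and 2.67, 3.59 and 3.22% with I13, which do not overlap, although its FPKM did. This share is a description and was not tested. The 5 factors summed to 143, 93.8 and 132 FPKM in the controls and to 106, 82.4 and 115 FPKM with I13.

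Among the 3 IkB mRNAs, Nfkbia made 55.6, 27.1 and 52.5% of the sum in the controls and 50.7, 31.2 and 49.6% with I13. In replicate 2 of both groups Nfkbib was instead the most abundant inhibitor, at 49.2% and 46.2%. The 3 inhibitors summed to 49.3 ± 18.4 FPKM in the controls and 49.4 ± 13.2 FPKM with I13 (SD, n = 3 each). Relative to Rela in the same sample, Nfkbia stood at 1.02, 0.262 and 0.71 in the controls and at 0.985, 0.41 and 0.865 with I13. The ratio of Nfkb2 to Rela was 1.43, 0.627 and 1.10 in the controls and 1.00, 0.516 and 0.971 with I13, lower with I13 in each pair but with overlapping ranges.

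The replicate number accounted for more of the spread of these genes than I13 did. The sum of squares of log2(FPKM + 0.1) over the 6 samples was split into a share between replicate numbers and a share between conditions. The share between replicate numbers was the larger in 9 of the 10 genes, all but Nfkbib. The same held for 7233 of the 12163 genes tested. The median share between replicate numbers over the 10 genes was 73.1%, against 42.2% over all genes tested. The median share between conditions was 6.12%, against 25.9%. The replicate number has 2 degrees of freedom and the condition 1, which favours the former in every gene. In Nfkbia the replicate number held 93.6% and the condition 0.0553%, in Nfkbie 93.8% and 2.27%, and in Relb 83.3% and 3.37%. For Rela, the gene with the largest share between conditions, the values were 49.9% and 37.2%. Nfkbib stood apart with 8.35% and 8.86%, most of its spread being left over.

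**Figure D3:**
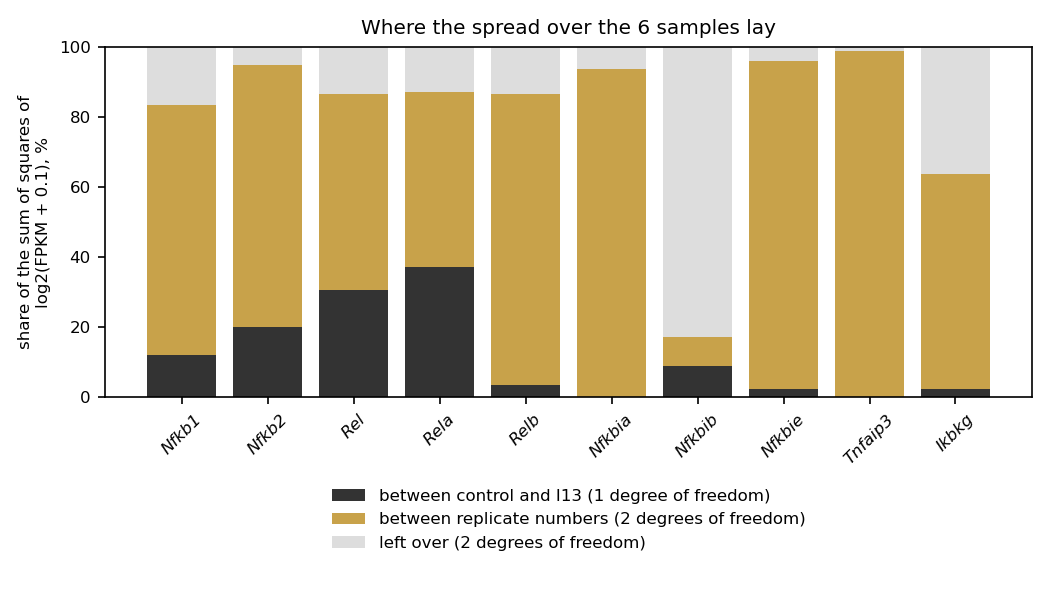
Share of the sum of squares of log2(FPKM + 0.1) over the 6 samples (y axis, percent, from 0) that lay between control and I13 (dark), between replicate numbers (gold) or was left over (grey), for each of the 10 NF-kB genes. The gold part exceeds the dark part in 9 of the 10 genes, and in Nfkbib 8.35% and 8.86% leave most of the spread over.

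Replicate number 2 was the lowest of its group in both the controls and the I13 samples for 6 of the 10 genes, Nfkb1, Nfkb2, Relb, Nfkbia, Nfkbie and Tnfaip3. This was so for 13.4% of all genes tested. In the blocked limma fit, a test of the replicate number, looked at after the values had been seen, gave an unadjusted p below 0.05 for 4 of the 10, against 19.3% of all genes. These were Nfkbia, Nfkb2, Nfkbie and Relb, with limma adjusted p-values over all genes of 0.0715, 0.074, 0.122 and 0.141, so none passed the adjustment. Replicate 2 was lower than replicate 1 by 1.79 for Relb, 1.69 for Nfkbia and 1.16 for Nfkb2 on the log2 scale, averaged over both groups. The macrophage marker Adgre1 was also lowest in replicate 2 of both groups. It had 37.6, 18.1 and 40.1 FPKM in the controls and 72.1, 44.1 and 76.7 FPKM with I13. Lyz2 was instead highest in replicate 2, at 1.42, 1.77 and 1.47 FPKM in the controls and 2.33, 4.08 and 2.04 FPKM with I13. Cd68 was lowest in replicate 2 of the controls but in replicate 1 with I13. The part of these markers in the differences was not tested. The labels do not say what a replicate number stands for, whether a day, a passage or an order of handling.

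Other regulators of the pathway were taken from a list of 67 genes for receptors, adaptors, kinases, ubiquitin enzymes and atypical IkB proteins, of which 62 were in the table and 58 passed the filter. This list, too, was written with earlier results of these data in view. Bcl3, among others, was not in the table, so it was not analysed here. None of the 58 was called without the block. An unadjusted p below 0.05 was found for 12 of them (5 higher, 7 lower with I13), which is 20.7% against 18.6% of all genes, so the list stood near the background. The median log2 fold change was 0.052. Groups that did not overlap were seen in 13 (22.4%), against 25.2% of all genes. With the block 1 of the 58 was called, Tax1bp1, against 1.89% of all genes.

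Tax1bp1 encodes an adaptor through which A20 acts on its substrates and which also serves as an autophagy receptor. Its FPKM was 35.8, 29.1 and 47.4 in the controls and 76.2, 66.7 and 97.8 with I13. Every I13 sample stood above every control. The means were 37.4 ± 9.25 and 80.2 ± 15.9 FPKM (SD, n = 3 each), which is a log2 fold change of 1.11 (SE 0.21, 95% confidence interval 0.62 to 1.59) with a limma adjusted p of 0.104 without the block and 0.0144 with it.

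Tab1, a partner of the kinase TAK1 that activates the IkB kinase, was lower in every I13 sample, at 16.1, 19.0 and 16.2 FPKM in the controls and 11.7, 13.2 and 12.1 FPKM with I13. Its log2 fold change of -0.46 (SE 0.10) did not reach 0.58, and its limma adjusted p was 0.115 without the block and 0.0472 with it. Fadd, an adaptor of death receptors, had 4.93, 4.04 and 4.55 FPKM in the controls and 2.46, 2.74 and 3.54 FPKM with I13, a log2 fold change of -0.62 with limma adjusted p-values of 0.136 and 0.0794. Il1rap, the shared chain of the interleukin 1 receptor, had 1.25, 1.44 and 1.5 FPKM against 2.51, 2.45 and 1.90 FPKM with I13. Its log2 fold change was 0.67, with limma adjusted p-values of 0.137 and 0.097. Voom with the block called 5 of the 58 regulators, against 4.14% of all genes. These were Tax1bp1, Il1rap, Traf5 and Nkiras1, which were higher, and Fadd, which was lower. Traf5 and Nkiras1 are named only for this count.

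The remaining named regulators whose groups did not overlap had smaller fold changes. Tab3 (log2 fold change 0.29), another partner of TAK1, and Otud7b (0.29), a deubiquitinase, were higher in every I13 sample. Ltbr (-0.33), the lymphotoxin β receptor that feeds the non-canonical route, was lower in every I13 sample, as were Nkiras2 (-0.34), which binds IkB proteins, and Btrc (-0.31), the ubiquitin ligase subunit that recognizes phosphorylated IkB. Their limma adjusted p-values without the block ran from 0.202 for Otud7b to 0.305 for Tab3.

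The catalytic subunits of the IkB kinase were not called in either fit. Ikbkb (Ikkβ) averaged 5.44 ± 0.333 FPKM in the controls and 5.70 ± 0.683 FPKM with I13, a log2 fold change of 0.061 (95% confidence interval -0.23 to 0.35, limma adjusted p = 0.819). Chuk (Ikkα) averaged 23.1 ± 1.27 and 23.7 ± 2.16 FPKM, a log2 fold change of 0.03 (95% confidence interval -0.21 to 0.27, limma adjusted p = 0.899). Both intervals lay inside the fold change threshold. Of the nuclear IkB proteins, Nfkbid averaged 3.65 and 4.23 FPKM (log2 fold change 0.21, limma adjusted p = 0.396) and Nfkbiz, which NF-kB induces, 1.16 and 1.71 FPKM (log2 fold change 0.50, limma adjusted p = 0.397), each overlapping between the groups.

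**Figure D4:**
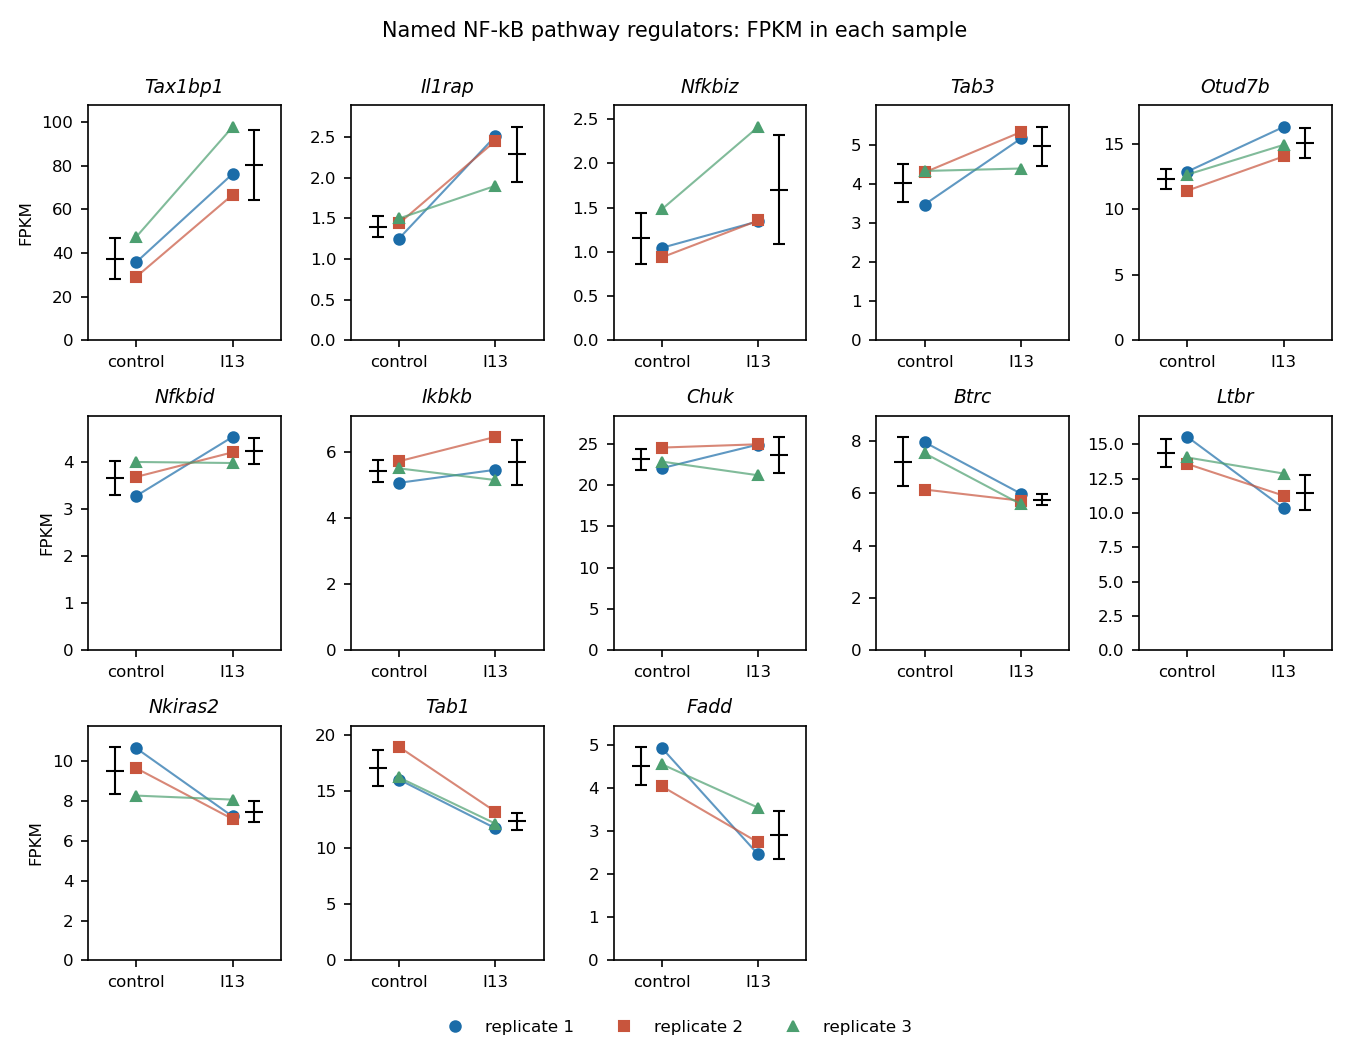
FPKM (linear axis from 0) of the 13 named regulators of the NF-kB pathway in the 3 control and 3 I13 samples. Points are samples, lines join equal replicate numbers, and black bars are the mean with its SD. Tax1bp1 lies between 29.1 and 47.4 in the controls and between 66.7 and 97.8 with I13, whereas the kinase genes Ikbkb and Chuk overlap between the groups.

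Known target genes of NF-kB were taken from a list of 60, of which 49 were in the table and 39 passed the filter. The list was written with earlier results of these data in view, so its shares beside those of all genes are a description only. Their log2 fold change was positive in 33 of 39, against 5989 of the 12163 genes tested. The median of the targets was 0.28, against -0.005 over all genes. None was called without the block, and 6 (15.4%) had an unadjusted p below 0.05, all higher, against 18.6% of all genes. With the block 6 were called, all higher with I13, against 1.89% of all genes, namely Tnf, Il6, Ccl3, Cd69, Ier3 and B2m. In the pairs, 25 were higher with I13 in all 3 and 3 were lower in all 3 (Cflar, Mmp9 and Tgm2), together 71.8% against 51.5% of all genes. Of all genes tested, 2933 were higher and 3326 lower in all 3 pairs. The blocked fit called 4, 0 and 0 targets without the samples of replicate 1, 2 and 3, and 83, 0 and 0 of all genes. With so few samples left, these counts cannot tell whether the 6 calls depended on particular samples. The summed macrophage markers and the summed markers of the line, given above, were higher in every I13 sample than in every control, as were the 4 erythroid markers, at 0.938 to 1.41 FPKM in the controls and 2.57 to 5.86 FPKM with I13. Their part in the changes of the targets was not tested. Many of these genes answer to other factors as well, and the list was not compared with other lists.

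Ier3, an early response gene that modulates survival, had 45.1, 13.6 and 37.9 FPKM in the controls and 81.8, 34.3 and 78.1 FPKM with I13. It was higher with I13 in each pair and lowest in replicate 2 of each group, and its log2 fold change was 1.07 with limma adjusted p-values of 0.307 without and 0.0313 with the block. The cytokine gene Tnf showed the same arrangement, at 13.1, 5.88 and 9.87 FPKM against 22.8, 9.65 and 18.7 FPKM, with a log2 fold change of 0.80 and limma adjusted p-values of 0.309 and 0.0321. Cd69, an early activation antigen of lymphocytes, had 9.29, 2.51 and 4.92 FPKM against 16.2, 8.07 and 12.8 FPKM. Its log2 fold change was 1.27, with limma adjusted p-values of 0.213 and 0.0384.

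Il6 and Ccl3, a cytokine and a chemokine, were highest in replicate 3 of both groups. Il6 had 2.72, 2.55 and 8.58 FPKM in the controls and 7.38, 5.31 and 29.2 FPKM with I13, and Ccl3 had 3.02, 0.444 and 9.41 FPKM against 4.96, 1.79 and 29.8 FPKM. Their log2 fold changes were 1.40 and 1.38, with limma adjusted p-values with the block of 0.0354 and 0.0478. B2m, the light chain of class I histocompatibility molecules, had 469, 414 and 759 FPKM against 758, 977 and 1444 FPKM, a log2 fold change of 0.95 with a blocked limma adjusted p of 0.0361. Within pairs 1, 2 and 3 the log2 differences were 1.41, 1.03 and 1.76 for Il6 and 0.70, 1.80 and 1.65 for Ccl3. They were 0.79, 0.70 and 0.91 for Tnf and 0.80, 1.65 and 1.36 for Cd69. For Ier3 they were 0.86, 1.32 and 1.04, and for B2m 0.69, 1.24 and 0.93. Single samples weighed heavily on the values of the called targets without the block, where leaving out 1 sample also leaves a pair incomplete. The log2 fold change of Ccl3 was 0.27 without control replicate 2, 0.29 without I13 replicate 3, 2.34 without control replicate 3 and 2.28 without I13 replicate 2. That of Il6 was 0.66 without I13 replicate 3. Without control replicate 2 it was 0.49 for Tnf, 0.80 for Cd69 and 0.54 for Ier3. In Il6, Ccl3 and B2m the control of replicate 3 exceeded at least the lowest I13 sample.

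Groups that did not overlap were found for 4 of the 39 targets (10.3%), all higher with I13, against 25.2% of all genes. The chemokine gene Ccl5 had 0.882, 0.354 and 0.768 FPKM in the controls and 3.25, 4.10 and 1.67 FPKM with I13, a log2 fold change of 2.00 (SE 0.41, limma adjusted p = 0.109). Gadd45b, a stress response gene that the study had picked from these same samples, had 3.76, 3.78 and 3.64 FPKM against 4.79, 6.12 and 6.94 FPKM, a log2 fold change of 0.64 (SE 0.15, limma adjusted p = 0.116). Slc2a3, a glucose transporter, and Pim1, a survival kinase, had log2 fold changes of 0.33 and 0.28. None of the 4 was called with the block, where their limma adjusted p-values ran from 0.0648 for Ccl5 to 0.145 for Pim1. Voom with the block called Ccl5 (log2 fold change 2.11, adjusted p = 0.02) and Gadd45b (0.67, adjusted p = 0.0382). In all, that fit called 11 of the 39 targets, all higher, against 4.14% of all genes, namely Tnf, Il6, Ccl3, Cd69, Ier3, B2m, Ccl5, Gadd45b, Csf1, Ccl4 and Clec4e, the last 3 being named only for this count.

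**Figure D5:**
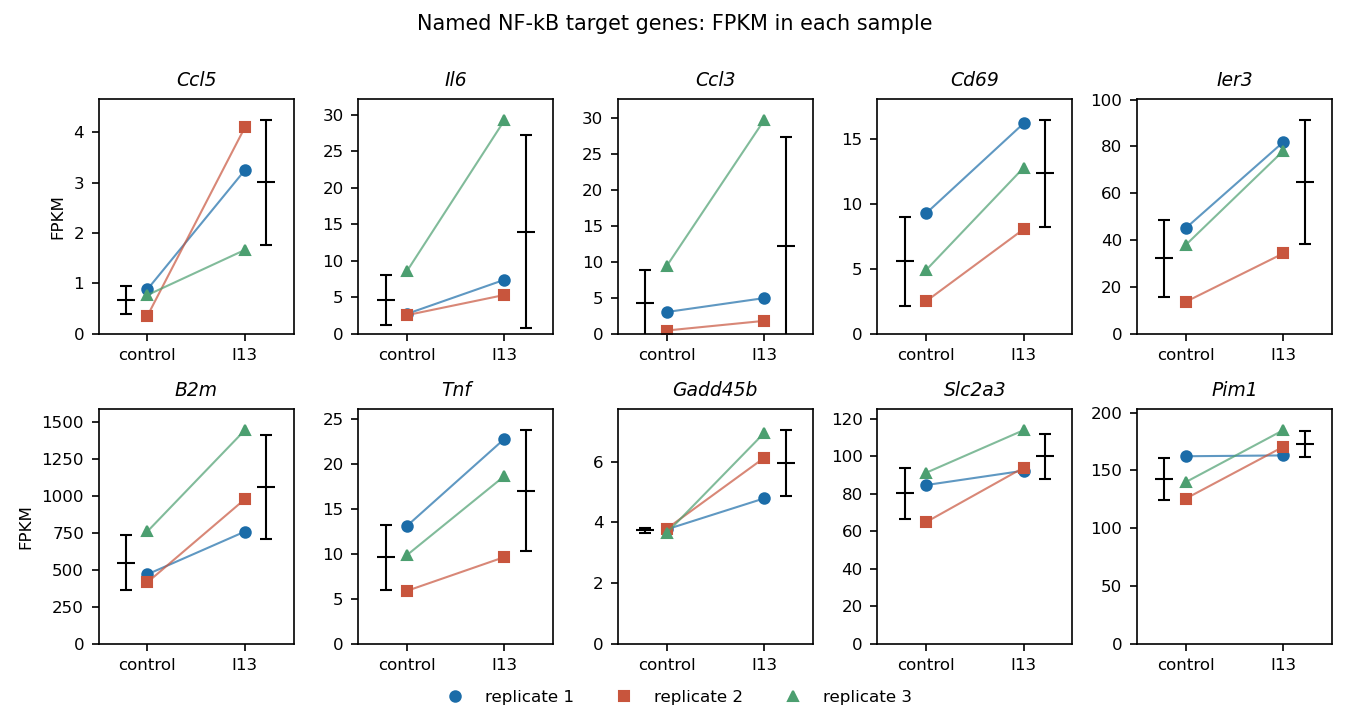
FPKM (linear axis from 0) of the 10 named NF-kB target genes in the 3 control and 3 I13 samples. Points are samples, lines join equal replicate numbers, and black bars are the mean with its SD, ending at the axis where mean minus SD is below 0. The lines rise from control to I13 in each gene, and replicate 2 is the lowest of both groups in Tnf, Il6, Ccl3, Cd69 and Ier3.

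Replicate 2 was also low among the targets, being the lowest of both groups in 21 of 39 (53.8%) and in 14 of the 58 regulators (24.1%), against 13.4% of all genes. The test of the replicate number in limma gave an unadjusted p below 0.05 for 26 targets (66.7%) and 13 regulators (22.4%), against 19.3% of all genes. After adjustment it passed for 4 targets, Ccl3, Ier3, Il6 and Tnf, and for 0 regulators. Traf1, a regulator that is also an NF-kB target, was lowest in replicate 2 of both groups too, with 4.34, 0.933 and 3.19 FPKM in the controls and 3.95, 1.23 and 5.03 FPKM with I13, 94.1% of its sum of squares lying between replicate numbers. Traf1 was picked out after its values were seen.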

How the data were processed

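Poly(A) RNA of 3 control and 3 I13-treated samples had been made into stranded libraries. The authors deposited FPKM values of 22413 genes in 1 table, per sample and without pooling, and 0 columns of samples were left unused. The submitters' processing notes list Trimmomatic, HISAT2, Cufflinks, HTSeq and hg38, with no versions, whereas the gene identifiers are of mouse. The strand setting of the counting is not given in the sources used here, and overlapping genes were not checked. No mouse genome was used, so no coordinates or sequences are given.

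Samples were grouped and numbered from the labels. The 12163 genes that averaged 0.5 FPKM or more were compared as log2(FPKM + 0.1) with limma 3.58.1 (eBayes with trend) in R 4.3.3, two-sided, with Benjamini-Hochberg adjustment. An exact permutation test of 3 against 3 samples cannot go below p = 0.1 and was not used. Deviations from the group means correlated by 0.15, 0.30 and 0.22 across genes for samples of the same number, and by -0.26 to 0.05 for others. On this ground the replicate numbers, which come from the labels, were taken to pair the samples. The correlations come from the same values as the blocked fits, so they cannot establish the pairing. Whole fragments were recovered from the FPKM values of all 22413 genes within 0.001 fragments, and 99.5% of each library total fell on the listed genes. Alternatives covered the block, pseudocount, filter, scaling, eBayes trend, voom on the recovered fragments and leaving out each sample. The blocked fit without each pair and the test of the replicate number were added after the values were seen. The scripts were tested on simulated data.

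The 10 genes, the lists and the tests were chosen with earlier results of these data known. Named are the 10 genes, Ikbkb, Chuk, Bcl3, Nfkbid and Nfkbiz, every regulator and target past both thresholds in either fit, and from each list the 5 higher and 5 lower genes with the largest change among those averaging 1 FPKM or more whose groups do not overlap. The 4 epithelial markers looked up were not in the expression table, so they were not analysed here. Figures were drawn with matplotlib 3.10.9.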

Additional observations from a re-analysis of the deposited data

How the results depend on the processing

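Without the replicate block 5 genes passed both thresholds, against 230 with it, 503 with voom and the block, 2 with the pseudocount at 0.01, 2 after median-ratio scaling, 8 without the filter on low values, 8 with eBayes without the trend and 0 without any 1 sample. The unadjusted p was below 0.05 for 2266 genes without the block in limma. With the block and without the samples of replicate 1, 2 or 3 the count was 83, 0 and 0. Of the 10 NF-kB genes, 1 was called under any alternative (Nfkb2, voom with the block). An unadjusted p below 0.05 was reached by 2 with the block, 3 by voom with the block, 0 to 2 without 1 sample (Nfkb2 and Relb without control replicate 2, Rela without I13 replicate 3), and 3, 1 and 2 with the block and without replicate 1, 2 and 3. Groups that do not overlap numbered 0 to 3 without 1 sample, 3 of them without control replicate 2. Regulators called numbered 1 with the block, 5 with voom and the block, and 1 with the block without replicate 1, and targets 6, 11 and 4. The cause of these differences was not tested, beyond the fewer samples of the fits that leave samples out. No other call of the 10 genes changed with the replicate block.

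Of the log2 fold changes under the settings chosen at the start, 141 of the 10 genes kept their direction and side of the threshold, 17 changed sign and 1 passed the threshold, and for the named list genes these counts were 346, 4 and 18. The sign of Rela, Nfkb1, Nfkb2 and Rel held throughout, with ranges of -0.39 to -0.17, -0.22 to -0.033, -0.99 to -0.21 and 0.13 to 0.49. Without 1 sample, the log2 fold change of Relb ran from -1.15 to 0.16, Nfkbia from -0.61 to 0.48, Nfkbib from -0.004 to 0.26, Nfkbie from -0.13 to 0.25, Tnfaip3 from -0.20 to 0.17, Ikbkg from -0.035 to 0.097, Chuk from -0.009 to 0.11 and Ikbkb from -0.032 to 0.13. Tnfaip3 turned to 0.006 with median-ratio scaling and 0.023 as TPM, and Nfkbia to -0.047 by voom with the block. With the block and without replicate 1, Relb was 0.11, Tnfaip3 0.030, Ikbkg -0.025 and Chuk -0.043. Without replicate 2, Nfkbia was -0.17, and without replicate 3, Nfkbia was -0.032, Nfkbib -0.084 and Tnfaip3 0.002.

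Relb and Tnfaip3 rested on as few as 63 and 81 fragments in a sample, and the other 8 genes on 230 or more.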
